A study of Mus musculus with 7 samples.

Results

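The genes described here are 34 genes of the unfolded protein response and of protein folding in the endoplasmic reticulum (ER), measured in mouse livers with and without the histone deacetylase HDAC3. They were read by gene symbol from the table of array values, each at its brightest probe set with exactly 1 annotated symbol, and all 34 were found among 19933 genes so represented. Liver RNA was hybridised to 7 Affymetrix Mouse Gene ST arrays, each from a C57BL/6 male mouse aged 4 months. The knockout group (3 arrays) received AAV-Cre, Cre recombinase delivered by an adeno-associated virus. The rescued group (4 arrays) received AAV-Cre together with AAV-Flag-HDAC3, a virus for Flag-tagged wild-type HDAC3, and the array titles call it WT. All mice therefore carried AAV-Cre, ate normal chow ad libitum, and were killed 2 weeks after injection at 5 pm (ZT10, 10 h into the light-dark cycle). The labels name neither the Hdac3 allele that Cre acts on nor the promoters of the viral genes, and no liver without a virus was analysed here.

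Proteins that enter the ER are folded there by chaperones, and misfolded ones are passed back to the cytosol for degradation. When unfolded protein builds up, 3 membrane sensors respond. IRE1 alpha (encoded by Ern1) splices the Xbp1 messenger RNA so that it encodes an active transcription factor, PERK (Eif2ak3) phosphorylates the translation factor eIF2 alpha and so favours translation of ATF4, and ATF6 is cut to release a transcription factor. The targets of these arms include the chaperones, the degradation machinery and, downstream of ATF4, amino acid and stress genes. Hepatocytes secrete much of the protein of blood plasma and have an extensive ER.

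Values are log2 intensities. A difference is knockout minus rescued on the log2 scale with its standard error (SE), and errors of group means are SD over arrays. Tests are limma's moderated test, adjusted for all 19933 genes by the method of Benjamini and Hochberg, and a gene is called at an adjusted p under 0.05. Levels of different genes are not compared, since probe sets differ in brightness. In bulk liver RNA, fewer cells of a type and less RNA per cell cannot be told apart.

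The promoters of some of these genes carry letters that ATF6, XBP1 or ATF4 are known to read, and examples are shown first because the results on chaperones and stress outputs concern such targets. Of the 34 genes, 29 matched the RefSeq promoter table of build GRCm38.p6, which gives 250 bases before and 50 after each annotated start. Both strands were searched for the ER stress response element ERSE (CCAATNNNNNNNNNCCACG), for ERSE-II (ATTGG and CCACG with 1 base between), for the core of the unfolded protein response element (TGACGTGG) and for the C/EBP-ATF element that ATF4 can bind (TGATGNAA). ERSE was present at 9 of the 29 genes (31.0%) and at 37 of all 27025 genes in the table (0.137%). These 9 genes were Calr, Canx, Creld2, Derl3, Dnajc3, Hsp90b1, Hspa5, Pdia6 and Syvn1, and Hsp90b1 had 2 matches. ERSE-II was found at Dnajb11 and Herpud1, against 0.0444% of all genes. The C/EBP-ATF element was found at Asns, Chac1, Herpud1 and Trib3, 13.8% of the 29 against 4.51% of all genes, and the TGACGTGG core at none of the 29 against 0.714%. No 2 matches overlapped in these promoters. A match is a description of letters, not of a bound site, and Ern1 and Xbp1 had no match in this window. The genes were picked as members of the response that ERSE is named for, so its higher share among them is no independent test. Genes downstream of ATF4 were picked in the same way, so the higher share of the C/EBP-ATF element is none either. The same holds for ERSE-II.

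The sequences below run 5′ to 3′ in the direction of the gene, end before the annotated start, and have the fixed letters of each match in capitals. The first 5 show ERSE at chaperone and degradation genes, Herpud1 shows a C/EBP-ATF element followed by ERSE-II, and the last 2 show the C/EBP-ATF element at amino acid response genes.
Hspa5: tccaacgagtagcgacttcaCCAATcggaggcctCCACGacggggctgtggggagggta
Hsp90b1: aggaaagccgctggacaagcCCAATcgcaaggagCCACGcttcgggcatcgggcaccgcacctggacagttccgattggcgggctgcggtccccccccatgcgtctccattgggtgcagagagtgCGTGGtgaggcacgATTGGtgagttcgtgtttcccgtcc
Creld2: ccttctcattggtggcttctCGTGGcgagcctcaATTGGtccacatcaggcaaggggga
Derl3: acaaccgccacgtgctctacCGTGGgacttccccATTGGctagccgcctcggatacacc
Syvn1: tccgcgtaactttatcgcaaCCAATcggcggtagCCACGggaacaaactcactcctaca
Herpud1: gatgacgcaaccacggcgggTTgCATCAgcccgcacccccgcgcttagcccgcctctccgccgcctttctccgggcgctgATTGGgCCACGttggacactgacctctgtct
Asns: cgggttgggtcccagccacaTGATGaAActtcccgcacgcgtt
Chac1: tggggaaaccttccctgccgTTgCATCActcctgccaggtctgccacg
In GRCm38.p6 the Hspa5 stretch is chr2:34772005-34772063 (plus strand), Hsp90b1 chr10:86705513-86705676 (minus), Creld2 chr15:88819500-88819558 (plus) and Derl3 chr10:75893222-75893280 (plus). The Syvn1 stretch is chr19:6046512-6046570 (plus), Herpud1 chr8:94386297-94386407 (plus), Asns chr6:7693210-7693252 (minus) and Chac1 chr2:119351029-119351076 (plus). All lie upstream of the annotated start, and in Hspa5 the ERSE match spans positions -65 to -47 from it.

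As a check of the labels, Hdac3 was at 8.93, 8.75 and 9.07 in the knockout livers and at 9.23, 9.45, 9.55 and 9.38 in the rescued livers. It fell by 0.48 (SE 0.10; limma adjusted p = 0.0124), and adjusted p was 0.050013 without knockout replicate 1. The probe set could also read the transcript of the rescue virus, so this checks the labels only in part. Every knockout array had a higher median over all genes than every rescued array, and the median difference over all genes was 0.09. The direction of calls depended on the scaling: knockout was higher in 66.3% of the calls as deposited, in 45.9% with quantile normalization, in 27.2% with median centring and in 45.0% with cyclic loess. All 8 measured hepatocyte markers were above the 95th percentile of olfactory and vomeronasal receptor genes. Of the 8, 1 was called, against 14.4% of all genes (4.85% lower). This was the clotting factor gene F9, which fell by 0.46.

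Among the 34 genes, 2 were called lower in the knockout livers, Ern1 and Xbp1, and 1 was called higher, Trib3. That is 8.82% of the group, against 14.4% of all genes (9.54% higher and 4.85% lower). With quantile normalization Ern1 and Xbp1 were the genes called, against 9.83% of all genes (4.51% higher, 5.32% lower). Median centring called the same pair, against 12.4% (3.37% higher, 9.04% lower), and so did cyclic loess, against 9.74% (4.38% higher, 5.36% lower). The pair was thus called under every scaling, 2 of 34 genes against 6.67% of all genes (2.61% higher, 4.06% lower). Ern1 and Xbp1 encode successive steps of a single arm of the response, the sensor IRE1 alpha and the transcription factor whose messenger it splices. The median difference of the 34 genes was 0.02 with a range from -0.43 to 0.34, and 19 differences were above 0 and 15 below. The groups did not overlap for 6 of the genes, 4 higher in knockout and 2 lower, while over all genes the groups were apart for 29.6%, 21% with knockout higher and 8.56% with knockout lower. An unadjusted p under 0.05 was found for 6 of the 34 genes and for 35.7% of all genes.

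**Figure D1:**
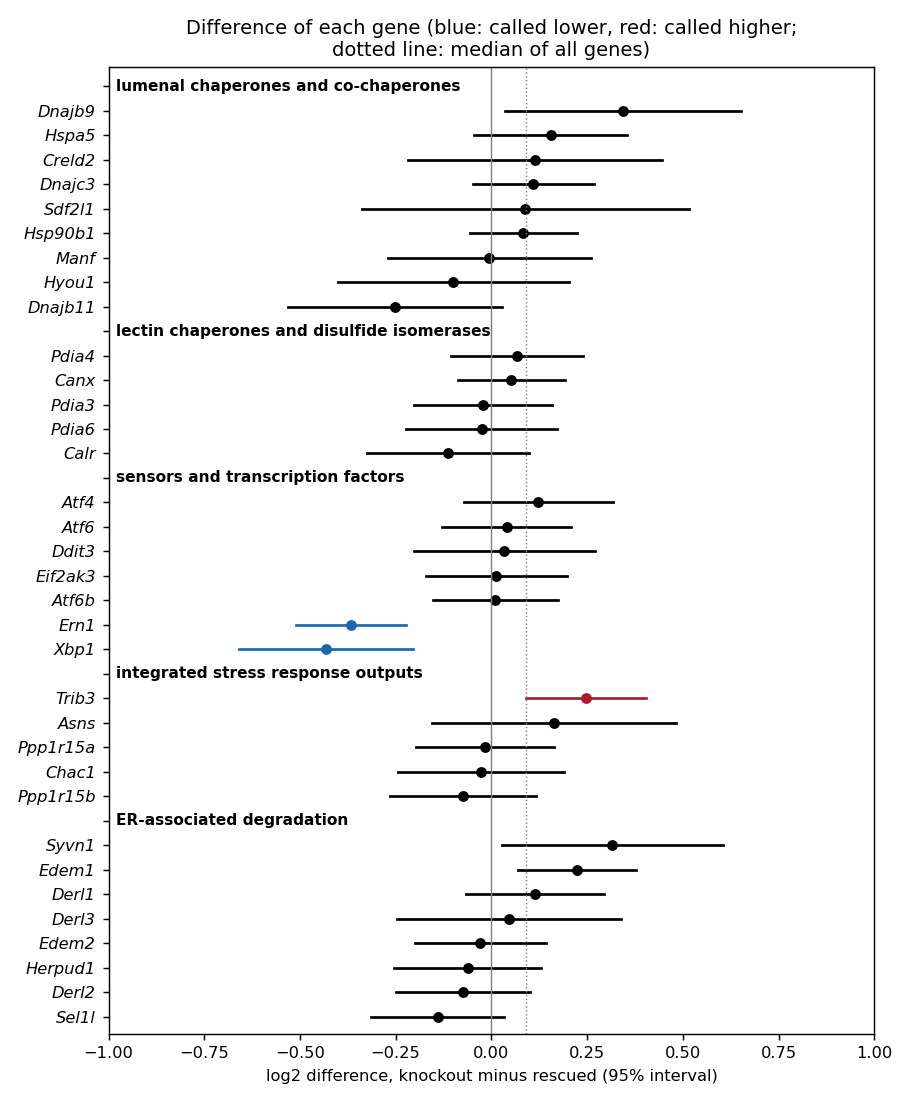
Difference of each of the 34 genes, knockout minus rescued, in log2 units with the 95% interval from limma's fit, grouped by role. Ern1 and Xbp1 (blue) lie below 0 and Trib3 (red) above it, while the 31 genes in black were not called; the dotted line is the median of all genes, 0.09.

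Ern1 had the smallest p of the group. It was at 9.37, 9.27 and 9.28 in the knockout livers and at 9.62, 9.67, 9.70 and 9.71 in the rescued livers. The highest knockout value was under the lowest rescued value, and the values within each group were close together. The difference was -0.37 (SE 0.07), 1.29-fold lower, with limma adjusted p = 0.00765. It was called in each of the 3 rescalings and with any single array left out, where it ranged from -0.40 to -0.35.

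Xbp1 was at 11.41, 11.53 and 11.65 in the knockout livers. In the rescued livers it was at 11.89, 11.90, 11.82 and 12.24. Rescued replicate 4 stood above the other rescued arrays, and the groups did not overlap. The means were 11.53 ± 0.12 (SD, n = 3) and 11.96 ± 0.19 (SD, n = 4), a difference of -0.43 (SE 0.10), 1.35-fold lower (limma adjusted p = 0.0249). The gene was called in each of the 3 rescalings (-0.52 to -0.47). Leaving out knockout replicate 1 (difference -0.37, adjusted p = 0.0976) or knockout replicate 2 (-0.43, adjusted p = 0.0597) ended the call. Without rescued replicate 4, the highest array, it was -0.34 with adjusted p = 0.0414. The value is for the transcript as a whole, and spliced and unspliced Xbp1 are not told apart by it.

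The other sensors and factors showed no difference that passed the test. Eif2ak3, which encodes PERK, averaged 7.88 ± 0.08 (SD, n = 3) in the knockout group and 7.87 ± 0.13 (SD, n = 4) in the other, with a difference of 0.01 and a 95% interval from -0.17 to 0.20. Atf6 differed by 0.04 (-0.13 to 0.21) and its relative Atf6b by 0.01 (-0.15 to 0.17). None of these 3 intervals reached the difference seen for Ern1, although differences between genes were not tested. Atf4, which is controlled mostly through translation, was at 8.37, 8.08 and 8.03 in knockout and at 7.95, 8.08, 8.07 and 8.05 in rescued livers. Knockout replicate 1 stood above the rescued range, the other knockout arrays did not exceed it to 2 decimals, and the difference was 0.12 (-0.07 to 0.32). Ddit3, which encodes the stress factor CHOP, was at 7.52, 7.30 and 7.04 in the knockout livers, a spread that covered all 4 rescued values (7.11 to 7.38). It differed by 0.03 (-0.20 to 0.27).

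**Figure D2:**
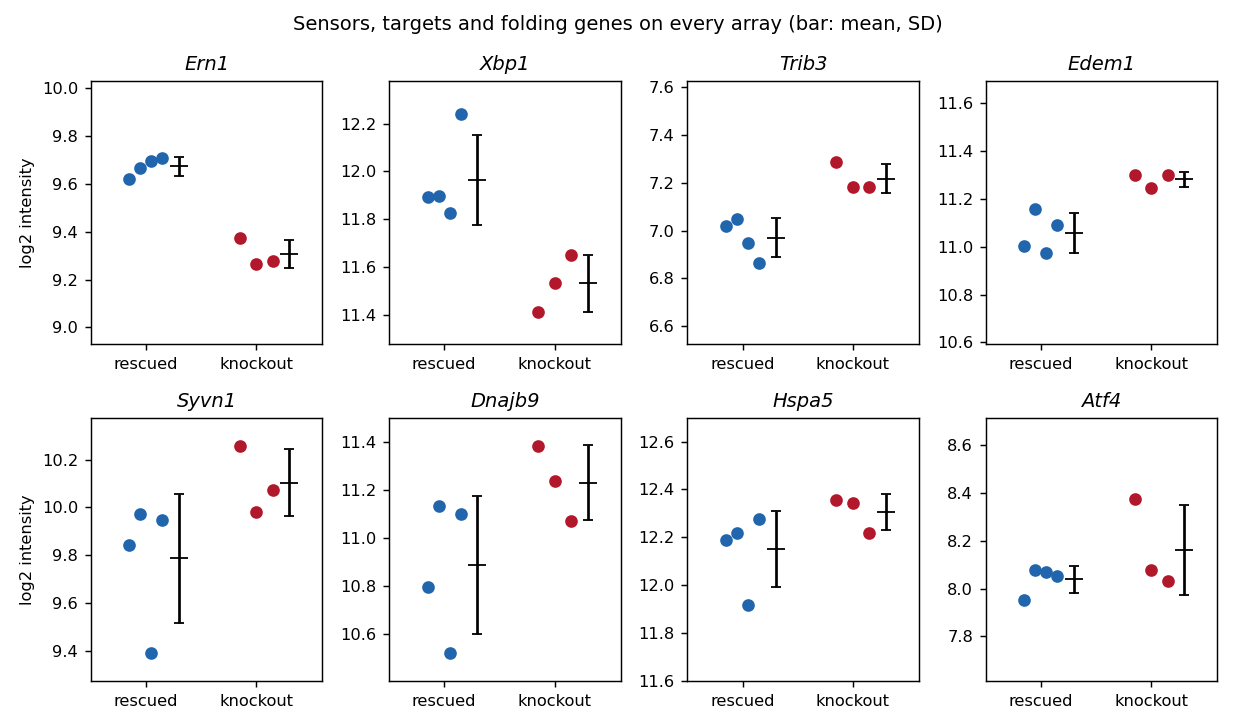
Log2 intensity of 8 genes on each array, rescued (blue, n = 4) and knockout (red, n = 3), with the mean and SD as black bars; every panel spans the same log2 range, at a different level. The groups separate for Ern1 and Xbp1 (knockout lower) and for Trib3, Edem1 and Syvn1 (knockout higher), and overlap for Dnajb9, Hspa5 and Atf4.

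The lumenal chaperones and their partners did not pass the test in either direction (0 of 9 called by limma, against 14.4% of all genes). Of the 9, only Dnajb9 had an unadjusted p under 0.05, against 35.7% of all genes. The median difference of the 9 genes was 0.09 as deposited, equal to that of all genes to 2 decimals. That match depended on the scaling and on the genes compared. After cyclic loess the medians were 0.09 against 0.00, with quantile normalization 0.06 against 0.01, and with median centring -0.0009 against -0.0002. Over genes brighter than the median gene, which include these 9, the median as deposited was 0.00. Hspa5 encodes BiP, the main chaperone of the ER and the usual marker of its stress. It was at 12.36, 12.34 and 12.22 in the knockout livers and at 12.19, 12.22, 11.92 and 12.28 in the rescued livers. The groups overlapped, and the difference was 0.15 (SE 0.09; limma adjusted p = 0.235) with an interval from -0.05 to 0.35. Without rescued replicate 3, the lowest array, it was 0.08. Hsp90b1, the ER member of the HSP90 family (GRP94), was at 11.83, 11.76 and 11.74 in knockout against 11.69, 11.73, 11.66 and 11.70 in rescued livers. Its groups did not overlap, but the difference was only 0.08 (SE 0.06; adjusted p = 0.350) and was -0.01 after median centring.

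Dnajb9 encodes ERdj4, a BiP co-chaperone and a known target of XBP1. It was at 11.38, 11.24 and 11.07 in the knockout livers and at 10.79, 11.13, 10.52 and 11.10 in the rescued livers. Knockout replicate 3 lay below the 2 highest rescued arrays, so the groups overlapped. The difference of 0.34 (SE 0.14) was not called (limma adjusted p = 0.107), and it was 0.22 without rescued replicate 3. Dnajb11, which encodes the co-chaperone ERdj3, differed in the opposite sense, by -0.25 (SE 0.13; adjusted p = 0.176). It was at 9.07, 8.64 and 9.07 in the knockout livers and at 9.05, 9.39, 8.98 and 9.30 in the rescued livers, so that only knockout replicate 2 lay outside the rescued range.

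Dnajc3, the co-chaperone also known as P58IPK, differed by 0.11, and Creld2, a secreted ER stress gene, also by 0.11. Sdf2l1, an ER protein that works with J-domain co-chaperones, differed by 0.09. Manf, a secreted ER stress protein, differed by -0.01 and Hyou1, the large HSP70 relative GRP170, by -0.10 (-0.23 without rescued replicate 3). Among the glycoprotein-binding lectin chaperones, Calr was at 11.99, 11.56 and 11.81 in knockout and at 11.94, 11.95, 11.81 and 11.90 in rescued livers, a difference of -0.11 (SE 0.10; limma adjusted p = 0.402). Canx was at 12.53, 12.53 and 12.45 against 12.47, 12.48, 12.40 and 12.44, a difference of 0.05 (SE 0.06; adjusted p = 0.562). Both genes overlapped between the groups. The protein disulfide isomerases Pdia3, Pdia4 and Pdia6 differed by -0.02, 0.07 and -0.03. None of the 5 genes of this set was called by limma or had an unadjusted p under 0.05. Over all genes 14.4% were called and 35.7% had such a p. The second probe set of Pdia4 differed by 0.03. Within this set Calr was widest in the knockout group, from 11.56 on replicate 2 to 11.99 on replicate 1.

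None of the 9 genes with an ERSE match in its promoter was called by limma, against 14.4% of all genes, and with 9 genes this count says little. Their differences ran from -0.11 (Calr) to 0.32 (Syvn1), with a median of 0.08 against 0.09 over all genes as deposited. Over genes brighter than the median gene, which include these 9, the median as deposited was 0.00.

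Genes of ER-associated degradation, the machinery that recognises, extracts and ubiquitinates misfolded proteins, were not called (0 of 8 by limma). Of the 8, 2 had an unadjusted p under 0.05, while over all genes 14.4% were called and 35.7% had such a p. Edem1 encodes a mannosidase-like protein that selects glycoproteins for degradation and is a known XBP1 target. It was at 11.30, 11.25 and 11.30 in the knockout livers and at 11.00, 11.16, 10.98 and 11.09 in the rescued livers. The knockout values were tightly placed above all rescued values. The difference of 0.22 (SE 0.07; limma adjusted p = 0.0534) was just outside the threshold. It passed among genes above the median level (adjusted p = 0.0427), among genes above the receptor range (0.0447) and with trend and robust spread (0.0393), and adjusted p was 0.0909 to 0.221 in the 3 rescalings.

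Syvn1 encodes HRD1, the ubiquitin ligase at the centre of this machinery. It was at 10.26, 9.98 and 10.07 in the knockout livers. The rescued livers were at 9.84, 9.97, 9.39 and 9.95. The groups did not overlap, by a narrow margin, and rescued replicate 3 was far below the rest. The difference was 0.32 (SE 0.13; limma adjusted p = 0.113), and 0.18 without rescued replicate 3. Sel1l, the partner of HRD1, was at 10.41, 10.37 and 10.24 against 10.52, 10.53, 10.32 and 10.55, a difference of -0.14 (SE 0.08; adjusted p = 0.216). Herpud1, which joins the HRD1 complex and is also an ATF4 and ATF6 target, differed by -0.06 (SE 0.09). Edem2, which starts mannose trimming, differed by -0.03, and the derlins Derl1, Derl2 and Derl3, membrane proteins of the exit channel, by 0.11, -0.07 and 0.05.

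Outputs of the integrated stress response, the programme downstream of eIF2 alpha phosphorylation, included the only gene called higher. That was 1 of 5 genes, against 9.54% of all genes called higher. Trib3, a pseudokinase gene induced by ATF4 and CHOP, was at 7.29, 7.18 and 7.18 in the knockout livers and at 7.02, 7.05, 6.95 and 6.86 in the rescued livers. The groups did not overlap. The difference was 0.25 (SE 0.07), 1.19-fold higher (limma adjusted p = 0.0436). The call rested on the scaling and on the arrays. Adjusted p was 0.10 with quantile normalization, 0.147 with median centring and 0.110 with cyclic loess. When each array was left out in turn, the gene passed without rescued replicate 1 and in no other case, and its difference ranged from 0.21 to 0.27.

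Asns, the asparagine synthetase gene and a classical ATF4 target, was at 7.74, 7.64 and 7.37 in knockout and at 7.17, 7.59, 7.74 and 7.18 in rescued livers. The rescued arrays ran from 7.17 to 7.74, the groups overlapped, and the difference was 0.16 (SE 0.14; limma adjusted p = 0.422). Chac1, a glutathione-degrading enzyme gene of the same programme, differed by -0.03. The phosphatase subunits that reverse eIF2 alpha phosphorylation, Ppp1r15a and Ppp1r15b, differed by -0.02 and -0.07, and the second probe set of Ppp1r15b by 0.16 (adjusted p = 0.195 over all rows), with the opposite sign.

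For the 31 genes that were not called, the intervals of the fit as deposited set a limit to what could have been missed in that scaling. In 29 of them the 95% interval, not adjusted for the number of genes, lay within a 1.5-fold change in either direction. The exceptions were Dnajb9 and Syvn1, with upper bounds of 0.65 and 0.60 on the log2 scale. This bound is wider than any called difference (1.19-fold for Trib3, 1.29-fold for Ern1 and 1.35-fold for Xbp1). Only 13 of the 31 had an interval within a 1.2-fold change. For the rest, a change of 1.2-fold in at least 1 direction lay inside the interval and could have been missed. Standard errors ran from 0.06 (Hsp90b1) to 0.19 (Sdf2l1). Intervals were not computed for the rescalings, in which the differences moved. After median centring Dnajb11 differed by -0.34 in place of -0.25, Dnajb9 by 0.25 in place of 0.34 and Syvn1 by 0.23 in place of 0.32. The counts of genes within a bound, and the exceptions, could therefore differ in another scaling. For 11 genes the sign itself depended on the scaling: Hsp90b1, Sdf2l1, Manf, Canx, Pdia4, Eif2ak3, Atf6, Atf6b, Ddit3, Edem2 and Derl3.

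**Figure D3:**
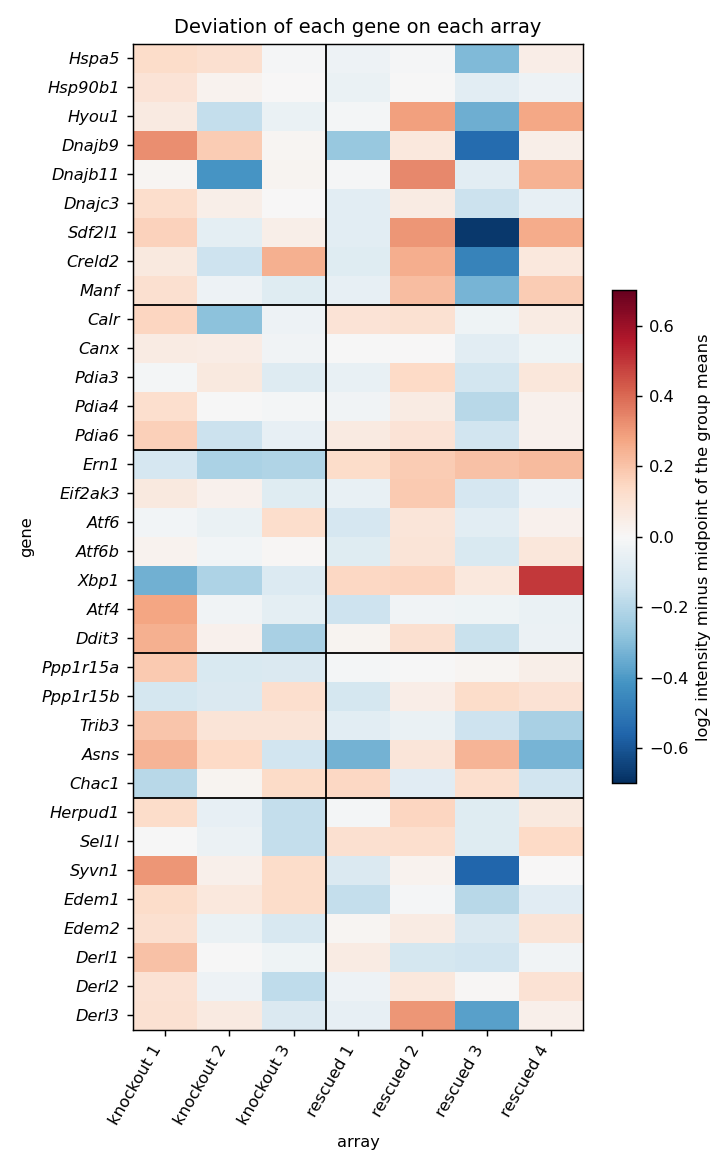
Log2 intensity of each of the 34 genes on each of the 7 arrays, minus the midpoint of its group means; red is above and blue below, and lines separate the roles and the groups. Ern1 and Xbp1 change colour at the group border, whereas the chaperone rows are darkest in single columns, above all rescued replicate 3.

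Several chaperone genes varied widely among the rescued livers, with the same arrays at the extremes. Rescued replicate 3 was the lowest rescued array for all 9 lumenal chaperone genes and for 25 of the 34 genes, and rescued replicate 2 was the highest for 8 of the 9 and for 23 of the 34. Over all genes, rescued replicate 3 was lowest for 31.5% and rescued replicate 2 highest for 18.1%. Rescued replicate 3 also had the lowest median over all genes (6.78 against 6.82 to 6.86 on the other rescued arrays). After cyclic loess, rescued replicate 3 was still lowest for all 9 and for 27 of the 34, against 24.3% of all genes. These arrays were singled out after their values were seen.

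Sdf2l1 showed this most. It was at 10.02, 10.41, 9.42 and 10.36 in the rescued livers, an SD of 0.45 at percentile 99.7 of all genes, and at 10.26, 10.03 and 10.14 in the knockout livers. Rescued replicate 3 differed from the mean of the other 3 rescued arrays by -0.84. Creld2 was at 10.32, 10.66, 9.94 and 10.48 in the rescued livers and Hyou1 at 10.24, 10.54, 9.91 and 10.52. Both had the same order of arrays, with replicate 3 lowest and replicate 2 highest. Derl3, at 8.16, 8.53, 7.84 and 8.26, and Manf, at 8.25, 8.52, 7.98 and 8.48, followed it as well.

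Of the 34 genes, 8 had a rescued SD above the 95th percentile of all genes (0.21), and none had a knockout SD above that percentile of its group. Besides those above they included Dnajb9, Syvn1 and Asns. Asns ran the other way, with rescued replicate 3 highest at 7.74. Rescued replicate 3 did not stand out for Ern1 (9.70) or Atf4 (8.07), and for Xbp1 it was the lowest rescued array at 11.82 while still above every knockout array. Without rescued replicate 3, Sdf2l1 differed by -0.12 in place of 0.09 and Creld2 by -0.02 in place of 0.11. The same array moved Hspa5 from 0.15 to 0.08, Dnajb9 from 0.34 to 0.22, Syvn1 from 0.32 to 0.18, Hyou1 from -0.10 to -0.23 and Asns from 0.16 to 0.27. In that fit Ern1 (-0.36, limma adjusted p = 0.0269) and Xbp1 (-0.48, adjusted p = 0.0400) were called. In the knockout group, replicate 1 was the highest array for 27 of the 34 genes, against 51.2% of all genes, and for 21 after cyclic loess, against 32.9%.

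**Figure D4:**
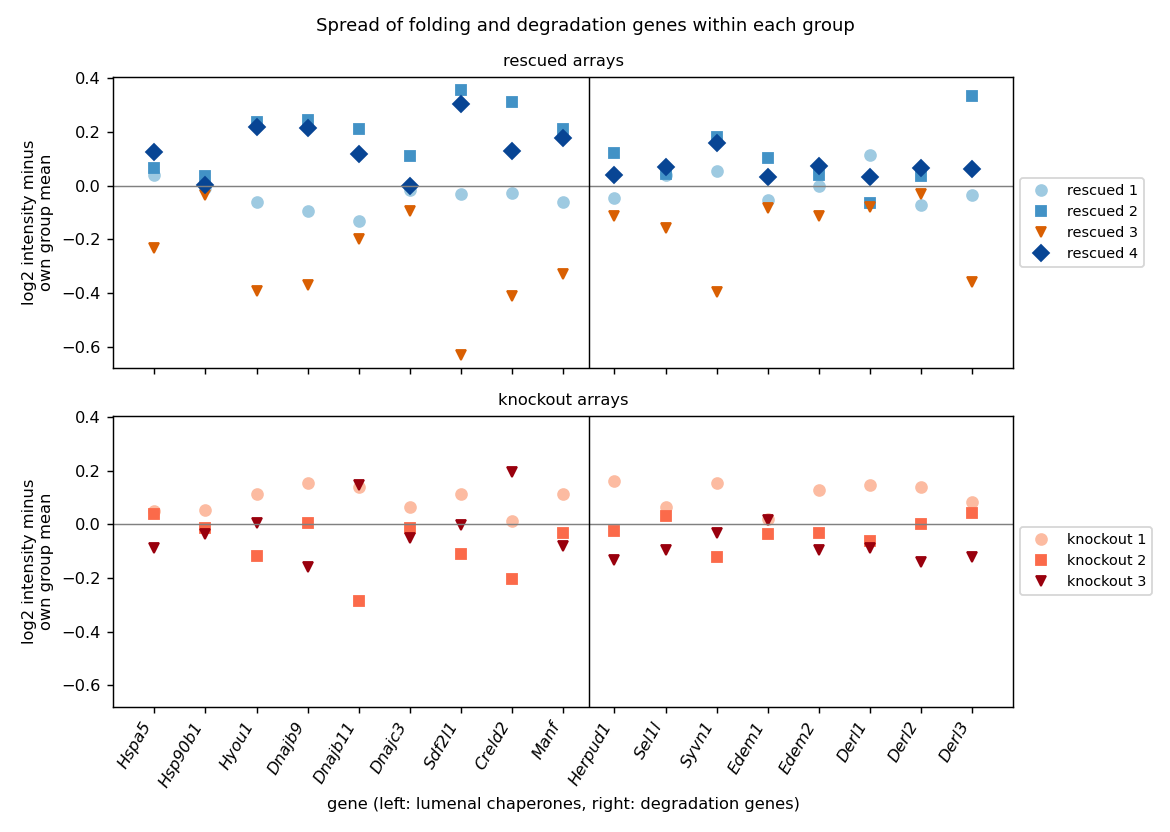
Log2 intensity of the 9 lumenal chaperone genes (left of the line) and the 8 degradation genes (right) on each array, minus the mean of the array's own group, for rescued arrays (top) and knockout arrays (bottom). Rescued replicate 3 (orange triangles) is the lowest rescued array for all 9 chaperone genes, while no knockout array is the lowest of its group for all 9. After cyclic loess (not drawn), knockout replicate 2 was the lowest of its group for 7 of the 9.

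Other genes of these pathways were followed through 7 further lists, which hold 161 measured genes. Of these, 10 were called higher and 8 lower, 11.2% against 14.4% of all genes, and 2 higher and 6 lower were called as deposited and in all 3 rescalings. Over all genes 2.61% were higher and 4.06% lower by that criterion. The median difference was -0.01 against 0.09 over all genes as deposited, and -0.03 against 0.00 after cyclic loess.

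Of 19 other degradation genes, 3 were lower and none higher. That is 15.8%, against 14.4% of all genes called in either direction and 4.85% called lower. In all rescalings 1 of the 19 was called lower, against 4.06% of all genes. Os9 encodes a lectin that delivers glycoproteins to HRD1. It was at 10.19 ± 0.16 (SD, n = 3) against 10.57 ± 0.04 (SD, n = 4), 1.30-fold lower (limma adjusted p = 0.0170), and was called in all rescalings. Leaving out rescued replicate 3 ended the call, and with 1 array left out the difference ranged from -0.45 to -0.29. Erlec1, a lectin of the same step, differed by -0.27 (adjusted p = 0.0370), and Edem3, a mannosidase related to EDEM1, also by -0.27 (adjusted p = 0.0378). Both were called after median centring but not after quantile normalization or cyclic loess. Erlec1 kept its call only without rescued replicate 1 (-0.30 to -0.22) and Edem3 only without knockout replicate 3 or rescued replicate 1 (-0.31 to -0.24). The median of this list was -0.07.

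Of 24 other folding and disulfide genes, 2 were lower and 1 higher, 12.5% against 14.4% of all genes. Dnajc1 and Dnajc10, which encode the ER co-chaperones ERdj1 and ERdj5, fell by 0.31 and 0.30 (limma adjusted p = 0.0296 and 0.0221), and were called in all rescalings. With 1 array left out, Dnajc1 kept its call only without rescued replicate 1 (-0.35 to -0.26), and Dnajc10 only without knockout replicate 2 or 3 or rescued replicate 1 (-0.36 to -0.26). P4hb, the founding protein disulfide isomerase, was higher by 0.26 (adjusted p = 0.0346). It was not called in any rescaling, and with 1 array left out only without knockout replicate 3 or rescued replicate 4 (0.23 to 0.30).

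None of 24 genes of the translocon, signal peptidase and oligosaccharyltransferase was called by limma as deposited, against 14.4% of all genes. An unadjusted p under 0.05 was found for 2 of the 24, against 35.7% of all genes. The smallest p-values of this list were those of Ssr4 and Rpn2. Ssr4, of the translocon-associated complex, differed by -0.38 (limma adjusted p = 0.0562), and Rpn2, of the oligosaccharyltransferase, by -0.20 (adjusted p = 0.106). Median centring, which called 9.04% of all genes lower, called both lower (limma adjusted p = 0.0244 and 0.0390). It also called Rpn1 lower (adjusted p = 0.0485), a gene named after its values were seen. Quantile normalization and cyclic loess called none of these genes. Of 19 ER to Golgi transport genes, none was called as deposited and 4 had an unadjusted p under 0.05, against the same shares of all genes. Sec13, named after its values were seen, was called lower after median centring only (limma adjusted p = 0.0315). Kdelr1, a receptor that returns ER chaperones from the Golgi, differed by -0.19 (limma adjusted p = 0.0832). It was called lower with quantile normalization (adjusted p = 0.0482) and median centring (0.0170) but not with cyclic loess (0.0733). Its relative Kdelr3 differed by 0.40 (adjusted p = 0.0586) at a level within the range of the receptor genes.

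Among 30 other ATF4 and amino acid response genes, 6 were higher and 2 lower, 26.7% against 14.4% of all genes. Only 2 of the 6 higher calls, and both lower ones, held in all rescalings; Atf5, Slc3a2, Vldlr and Gpt2, named after their values were seen, did not. The median was 0.16 against 0.09. After cyclic loess it was 0.09 against 0.00. Cth, the cystathionine gamma-lyase gene, was at 12.31 ± 0.01 (SD, n = 3) against 11.73 ± 0.06 (SD, n = 4), 1.49-fold higher (limma adjusted p = 0.000729), in every rescaling and with any array left out. Atf3, a stress-induced transcription factor gene, was higher by 0.42 (adjusted p = 0.0187), in all rescalings but not without knockout replicate 1 or 2 or rescued replicate 3 (0.37 to 0.50). The lower members were the transfer RNA synthetase genes Sars (-0.48, adjusted p = 0.0164) and Iars (-0.37, adjusted p = 0.0114), both in all rescalings. The Sars call ended when knockout replicate 1 or 2 or rescued replicate 3 was left out (-0.61 to -0.38), and the Iars call was kept with any array left out.

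Of 24 other sensors and regulators, 1 was lower and 1 higher, 8.33% against 14.4% of all genes. Bcl2l11, the gene of the cell death protein BIM, was 1.40-fold lower (limma adjusted p = 0.0189), in all rescalings but not without knockout replicate 1 or 3 (-0.54 to -0.39). Nfe2l1, an ER-anchored transcription factor gene, was higher by 0.23 (adjusted p = 0.0467). It was not called with any single array left out (0.20 to 0.26), nor with median centring. Of 21 cytosolic and mitochondrial heat shock genes 2 were higher, 9.52% against 9.54% of all genes called higher. These were the small heat shock protein gene Hspb8, by 0.38 (limma adjusted p = 0.0408), and the mitochondrial chaperone gene Hspa9, by 0.24 (adjusted p = 0.0351). Neither was called in all rescalings. With an array left out, Hspb8 kept its call only without rescued replicate 2 (0.30 to 0.46) and Hspa9 only without knockout replicate 3 or rescued replicate 1 (0.21 to 0.29).

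**Figure D5:**
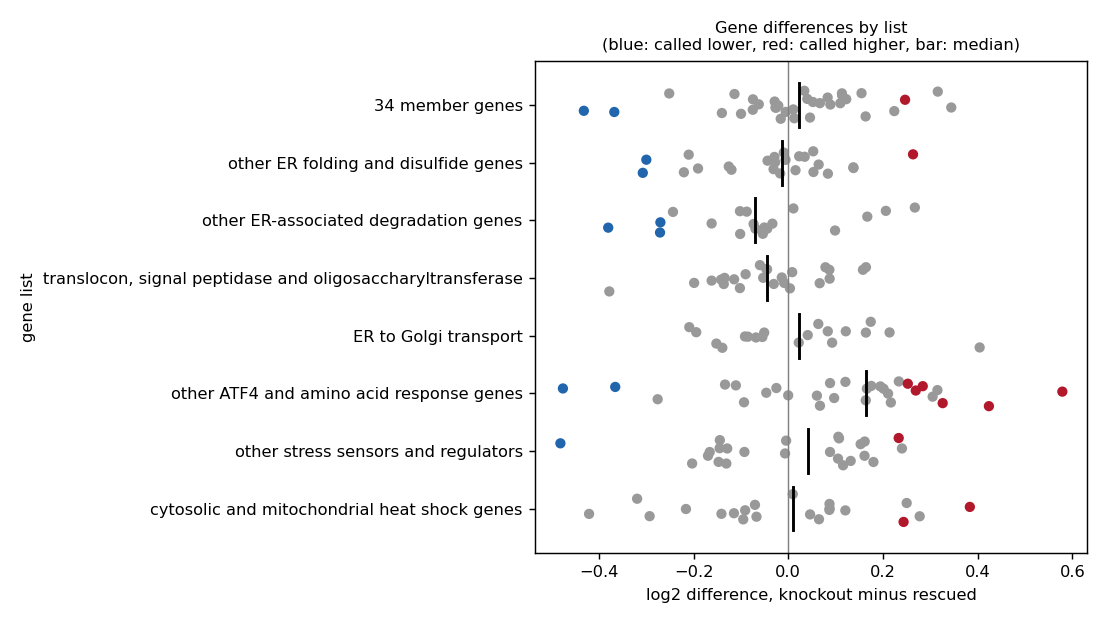
Difference of each gene, knockout minus rescued in log2 units, for the 34 genes and for 7 further lists of related genes; each point is a gene, blue called lower, red called higher, grey not called, and the black bar is the median of the list. The ATF4 and amino acid list has the highest median, 0.16, and the other degradation genes the lowest, -0.07.

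Plasma cells and pancreatic acinar cells are rich in ER folding genes, so their markers were read as well. The summed level of 7 B cell and plasma cell markers ran from 8.85 to 8.98 in knockout and from 8.69 to 8.83 in rescued livers, and 3 of the 7 were above the 95th percentile of the receptor genes. Tnfrsf17 and Pou2af1 were called higher by limma (0.36 and 0.34), neither in all rescalings, while the antibody chain gene Jchain differed by -0.12 and was, like Cd79a and Ms4a1, within the receptor range. For 7 acinar markers the sum was 9.23 to 9.30 against 8.97 to 9.19, with 4 above that percentile and 1, Cela2a, called higher by 0.36. Both sums were higher on every knockout array, as was the median of all genes. The same held for 5 cholangiocyte markers (9.06 to 9.24 against 8.85 to 9.0) and for 8 T cell, NK cell and neutrophil markers (9.05 to 9.24 against 8.86 to 8.99), with none called in either list. The part of these cell types in the results was not tested. Of the macrophage markers none of 8 was called, of the endothelial markers 1 of 7 (Clec4g, difference -0.29) and of the stellate markers 1 of 8 (Lrat, higher by 0.32). Over all genes 14.4% were called.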

How the data were processed

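Liver RNA was isolated with Trizol, per the labels' protocols. The authors deposited 1 linear intensity value per probe set and array, from 5.41 to 17351, and RMA and Partek are named, without versions, in the submitters' processing notes. RMA corrects background, normalizes between arrays and summarises probes; the last scaling step is unknown. The build is not given in the labels, notes or file headers. Of 27541 rows, 21631 had 1 gene symbol in the platform annotation, 1317 several and 4593 none. The log2 values were fitted with limma 3.58.1 in R 4.3.3 (no trend, no covariates, no filter, two-sided) and tested on simulated data. No 2 arrays shared more than 3.79% of equal values. The labels call the arrays biological replicates, and their number limits the precision. Probe sets above the 95th percentile of 1190 olfactory and vomeronasal receptor genes were taken as above background.

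The 34 genes and all lists, with the motifs searched, were chosen with earlier results of these data known, and the lists are described by counts and medians. Named are all 34 genes and, from each list, up to 4 called genes with the largest differences, or the 2 with the smallest p where none was called. Of the marker lists, called markers are named; Jchain, Cd79a and Ms4a1 were named after their values were seen. Alternatives were quantile, median and cyclic loess scaling, 2 filters on dim genes, all rows, array weights, the mean of probe sets, a mean-dependent and robust prior (trend and robust spread), a replicate block, each array left out, a threshold of 0.1 and a test against a fold of 1.2. Figures were drawn with matplotlib 3.10.9.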

Additional observations from a re-analysis of the deposited data

Results flagged for a closer look

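Of 53 named genes tested for a single deviating array in the rescued group, 1 stood out. Sel1l was at 10.32 on rescued replicate 3, while the other 3 rescued arrays lay between 10.52 and 10.55. Chance gives such a gap in about 1 group in 20.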

How the results depend on the processing

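The calls of Ern1 and Xbp1 as lower were kept in all 3 rescalings, both filters, all rows, array weights, trend and robust spread, the mean of probe sets and the replicate block (-0.36 and -0.34), and neither passed the test against a fold of 1.2, in which 136 genes of all, 0 of the 34 in either direction, and 1 higher and 0 lower of the listed pathway genes were called. Of the 34 genes, 1 was called higher as reported. The count was 0 after quantile, median and cyclic loess scaling, with all rows and with array weights, and 2 under both filters, with trend and robust spread and at a threshold of 0.1. The labels do not say that the replicate numbers pair the arrays. Same-numbered deviations correlated at 0.151, 0.003 and 0.005, and knockout replicate 2 correlated best with rescued replicate 3, at 0.148. With so few arrays these values neither show nor exclude pairing. With the replicate block 1938 genes were called, and the gene called higher was Dnajb9 (0.42, adjusted p = 0.0406) in place of Trib3. The listed pathway genes called higher numbered 10 as reported, 4 after quantile, 2 after median and 6 after cyclic loess scaling, 6 with all rows, 6 with the replicate block and 19 at 0.1. Those called lower numbered 8 as reported, 22 after median centring, 5 with the replicate block and 15 at 0.1. At 0.1 the genes called were 5528, against 2867 as reported. With 1 array left out, all genes called ranged from 897 to 3263, members higher from 0 to 1 and lower from 1 to 2, and pathway genes higher from 1 to 11 and lower from 2 to 9. The causes were not tested.

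The 11 genes whose sign depended on the scaling stayed between -0.12 (Edem2) and 0.09 (Sdf2l1) in every scaling. With every alternative counted, 19 of the 34 changed sign at least once, none of them while called.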

Other observations

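Besides PERK, 3 other kinases phosphorylate eIF2 alpha. They are named here after their values were seen. Eif2ak2, the gene of the kinase PKR that senses double-stranded RNA, differed by -0.20 (limma adjusted p = 0.0872). It was called lower after median centring (adjusted p = 0.0353) but not after quantile normalization (0.0545) or cyclic loess (0.0588). Eif2ak4, the gene of the amino acid sensor GCN2, differed by -0.14 (limma adjusted p = 0.128). It was called lower after quantile, median and cyclic loess scaling (adjusted p = 0.0399, 0.0390 and 0.0438), which called 5.32%, 9.04% and 5.36% of all genes lower. Eif2ak1, the gene of the haem-regulated kinase, differed by -0.09 (adjusted p = 0.314). Fkbp14, an ER prolyl isomerase gene, was likewise named after its values were seen. It was called lower in those 3 scalings (limma adjusted p = 0.0479, 0.0409 and 0.0455) but not as deposited (-0.19, adjusted p = 0.142).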
